A study of Mus musculus with 8 samples.

Results

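RNA of 37 genes that carry signals from the IGF1 and insulin receptors was described in islets of β-cell Igf1r knockdown mice and their controls. The genes were chosen by name from general knowledge of the pathway, with earlier results of these data known. They make up 37 of the 53012 gene identifiers in the count table. They fall into 10 receptor substrates and adaptors, 5 subunits of phosphoinositide 3-kinase (PI3K), 7 genes of the kinases PDK1 and AKT and their substrates, 4 FOXO transcription factors, 5 phosphatases and 6 genes of the RAS to ERK cascade.

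The RNA-seq data hold 4 βIgf1r and 4 βIgf1rKD mice, each with its own islet library. All 8 mice were Igf1r flox/flox, with exon 3 of Igf1r flanked by loxP sites. The βIgf1rKD mice also carried Ins1-CreERT2+/-, a Cre recombinase driven in β-cells and activated by tamoxifen, and were injected with tamoxifen in corn oil at 0.075 mg/g on 5 days. The βIgf1r mice were Ins1-CreERT2-/- and received corn oil, so that Cre, tamoxifen and recombination of Igf1r cannot be told apart. The mice were 17 months old, both sexes were present in each group without being marked per mouse, and islets were taken 7 days after the last injection. Values per mouse are given in the order M148, M151, M152 and M153 for βIgf1r and M145, M146, M149 and M150 for βIgf1rKD.

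When IGF1 or insulin binds, the receptor phosphorylates IRS proteins, which recruit PI3K. The lipid that PI3K makes draws PDK1 and AKT to the membrane, and active AKT phosphorylates GSK3, the Rab regulators TBC1D1 and TBC1D4, and FOXO factors, which then leave the nucleus. The same receptors reach RAS, RAF, MEK and ERK through SHC, GRB2 and SOS. In β-cells the pathway is known for its part in β-cell mass and insulin content, and IRS2 is known as a substrate that islets depend on. Most steps act through phosphorylation, which RNA levels do not report.

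Promoter windows of 300 bases around the RefSeq gene starts (GRCm38.p6) were found for 33 of the 37 genes, all but Gab2, Foxo4, Foxo6 and Mapk3. Those of the IRS genes are shown because IRS2 is a known target of FOXO factors, and that of Pik3cb because it is the gene whose mice did not overlap between the groups. Capitals mark the E-box CACGTG and TGTTTTG, the reverse complement of the insulin response element core CAAAACA, in the IRS windows, and the GC box GGGCGG, on the printed strand only, in the Pik3cb window. The windows, all on the minus strand and written 5′ to 3′, are chr8:11008880-11009179 for Irs2, chr1:82291390-82291689 for Irs1 and chr9:99140162-99140461 for Pik3cb.
Irs2: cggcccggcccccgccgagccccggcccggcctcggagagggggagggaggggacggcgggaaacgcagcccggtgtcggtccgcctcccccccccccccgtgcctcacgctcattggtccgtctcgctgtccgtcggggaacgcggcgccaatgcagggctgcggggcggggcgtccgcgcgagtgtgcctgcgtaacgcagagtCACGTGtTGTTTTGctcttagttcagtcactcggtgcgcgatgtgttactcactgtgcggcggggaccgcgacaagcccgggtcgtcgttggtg
Irs1: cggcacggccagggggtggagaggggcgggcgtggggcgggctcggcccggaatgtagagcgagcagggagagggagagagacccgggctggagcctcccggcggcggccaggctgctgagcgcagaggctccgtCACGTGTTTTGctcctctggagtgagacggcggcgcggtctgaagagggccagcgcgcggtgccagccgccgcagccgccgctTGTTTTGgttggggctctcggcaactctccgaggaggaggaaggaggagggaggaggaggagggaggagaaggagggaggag
Pik3cb: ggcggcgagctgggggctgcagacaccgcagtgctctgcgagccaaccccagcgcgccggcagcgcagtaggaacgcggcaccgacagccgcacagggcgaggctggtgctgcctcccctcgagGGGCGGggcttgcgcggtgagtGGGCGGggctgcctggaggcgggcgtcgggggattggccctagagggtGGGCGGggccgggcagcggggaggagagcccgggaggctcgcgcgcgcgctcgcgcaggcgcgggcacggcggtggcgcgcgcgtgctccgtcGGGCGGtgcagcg
In Irs2 the E-box starts 44 bases before the RefSeq gene start and is separated from TGTTTTG by 1 base. In Irs1 the E-box, 115 bases before the RefSeq start, runs into TGTTTTG. The RefSeq starts of the windows shown are not those of the gene coordinates given below, which are from GENCODE. On either strand, CACGTG was in the windows of 3 of the 33 genes (Irs1, Irs2 and Nras, 9.09%) and in 8.09% of the windows of all 27025 genes. CAAAACA was in the windows of 4 genes (Gab1, Irs1, Irs2 and Nras, 12.1%, against 7.2% of all), and GTAAACA, a FOXO binding element, in those of Akt1 and Nras (6.06%, against 4.05%). GGGCGG was in 30 windows (90.9%, against 38.2%). The windows of all genes include those of many genes with too few counts to be tested here, whereas all the signaling genes were tested. The shares among genes of similar level were not computed.

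Total counts per mouse lay between 21634080 and 42391328, and each of the 37 genes had between 116 and 7763 counts in every mouse. The count of Igf1r, which does not separate exon 3 from the others, was 53.6 ± 7.21 CPM (counts scaled to library size, SD, n = 4) in βIgf1r and 50.7 ± 4.996 in βIgf1rKD mice. The log2 fold change was -0.08 (95% interval -0.33 to 0.17, exact permutation p = 0.543), so that the RNA of the targeted gene did not separate the groups in these libraries. The paper reports lower Igf1r mRNA by qPCR and lower IGF1R protein by Western blot in βIgf1rKD islets, from sets of mice that differ in number and age. All 12 islet endocrine markers were detected and held 19.4 to 26.6% of the counts in βIgf1r and 13.3 to 26.5% in βIgf1rKD mice. Of these markers 9 were lower on average in βIgf1rKD mice, and 1 at an unadjusted edgeR p under 0.05, Ins1 (0.528-fold, exact permutation p = 0.0286, edgeR adjusted p = 0.987), whose mice did not overlap. Only the βIgf1rKD mice carried Ins1-CreERT2+/-, and whether this allele itself changes the count of Ins1 was not tested. Other markers overlapped between the groups, with log2 fold changes of -0.08 for Ins2, -0.23 for Iapp and -0.13 for Slc2a2. For Pdx1 and Nkx6-1, which overlapped too, they were 0.08 and 0.21. Acinar markers, which come from exocrine tissue, held 2.54 to 18.5% and 5.31 to 20.9%, and were higher on average in βIgf1rKD mice for 12 of 12 genes with none at an edgeR p under 0.05. The summed level of 11 endothelial markers was 494.5 to 619.6 CPM in βIgf1r and 438.9 to 493.5 CPM in βIgf1rKD mice, with no overlap, and 6 of the 11 were lower at an unadjusted p under 0.05. Leukocyte markers summed to 112.9 to 175.8 and 126.9 to 263.2 CPM, fibroblast and pericyte markers to 193.8 to 215.6 and 107.6 to 360.8 CPM, and Schwann cell markers to 12.6 to 15.9 and 9.40 to 13.8 CPM. At an unadjusted edgeR p under 0.05 were C1qb of the leukocyte list (log2 fold change 0.54) and Rgs5 of the pericyte list (-0.31), and all 6 Schwann cell markers were lower on average with none under 0.05. No marker was at 0 in every mouse.

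The signaling genes differed little between the groups. None of the 37 had an adjusted p under 0.05 in edgeR's quasi-likelihood test (smallest 0.987), as for all 15474 genes tested, of which 0% were called (smallest 0.948). By DESeq2 and limma-voom no signaling gene was called either. At an unadjusted p under 0.05 there was 1 of the 37, Pik3cb, which is 2.7% against 4.12% of all genes tested, and its mice alone did not overlap between the groups, against 2.22% of all genes. The log2 fold change was above 0 for 20 genes and below 0 for 17, with a median of 0.02 (0.01 over all genes tested). It ran from -0.21 for Braf to 0.32 for Pik3cb, and the median of its size was 0.07, against 0.10 over all genes. Exact p-values given for single genes are from two-sided permutation tests of log2 CPM over the 70 assignments of 4 and 4 mice, and the edgeR adjusted p of a signaling gene was 0.987 or more. In bulk RNA, fewer cells of a type and less RNA per cell cannot be told apart.

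The depth and the spread between mice allowed narrow bounds. For 36 of the 37 genes the 95% interval of the fold change lay within 1.5-fold either way, compared with 64.8% of all genes tested. The genes tested include many of lower level, and the share among genes of similar level was not computed. The exception was Irs2, with an interval from 0.586-fold to 1.39-fold. The SD of log2 CPM between mice of a group had a median of 0.16 over the signaling genes, from 0.06 for Grb2 to 0.47 for Irs2. It was 0.20 over all genes tested and 0.16 over the 9575 genes whose mean CPM lay in the same range of 6.33 to 191.7, so that the signaling genes varied between mice about as much as genes of similar level.

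**Figure D1:**
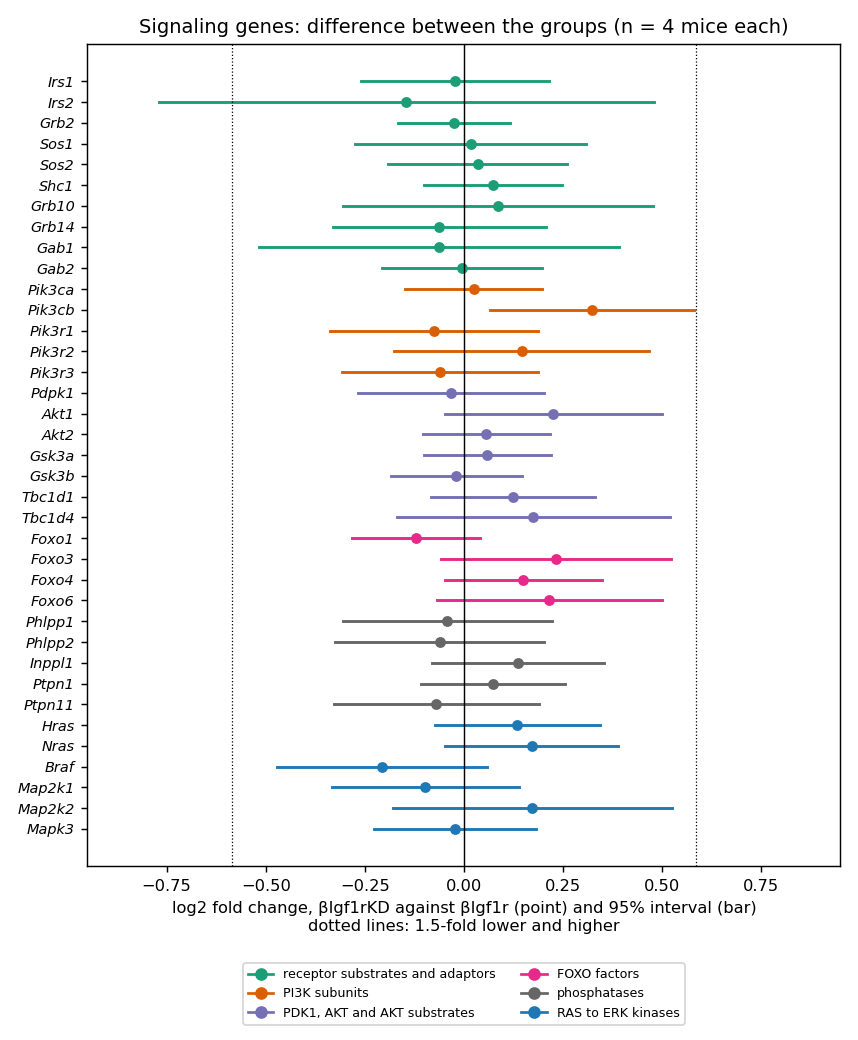
Log2 fold change of each signaling gene in βIgf1rKD against βIgf1r islets (points) with its 95% interval (bars), on the x axis, for 4 mice per group and with colors for the role of the gene. All intervals except that of Pik3cb span 0, and all except that of Irs2 stay within the dotted lines at 1.5-fold.

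Among the receptor substrates and adaptors, 4 genes had a log2 fold change above 0 and 6 below, between -0.15 and 0.09, and none passed the test. Irs1 (chr1:82233101-82291416), which encodes a docking protein for PI3K, was at 8.41, 8.77, 9.11 and 9.24 CPM in βIgf1r and at 9.69, 8.75, 9.01 and 7.57 CPM in βIgf1rKD mice. The groups overlapped, with M150 lowest and M145 highest, and the log2 fold change was -0.02 (SE 0.11, exact p = 0.771). Irs2 (chr8:10984681-11008458), the other IRS gene, was at 42.4, 24.2, 31.8 and 40.8 CPM in βIgf1r and at 52.0, 27.2, 24.6 and 22.2 CPM in βIgf1rKD mice. It was the most variable of the 37 genes. M145 was the highest of all 8 mice, and the other 3 βIgf1rKD mice lay within the lower part of the βIgf1r range or below it. Its log2 fold change was -0.15 (SE 0.28, exact p = 0.600). Without a single mouse it ran from -0.49 (without M145, at an unadjusted edgeR p under 0.05, adjusted p = 0.971) to -0.01 (without M150), and it was also near 0 without M148 (-0.04) or M149 (-0.05).

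Shc1, an adaptor that links receptors to GRB2, was at 125.9, 118.8, 121.4 and 124.6 CPM in βIgf1r and at 136.1, 138.3, 119.8 and 122.1 CPM in βIgf1rKD mice. M145 and M146 were above all βIgf1r mice and the other two within their range, with a log2 fold change of 0.07 (SE 0.08, exact p = 0.314). Grb2, the adaptor that brings SOS to the receptor, varied least of all 37 genes, at 64.3 ± 1.87 CPM in βIgf1r and 63.2 ± 3.06 CPM in βIgf1rKD mice (SD, n = 4 each). Sos1 and Sos2, the exchange factors that load RAS with GTP, had log2 fold changes of 0.02 (SE 0.13) and 0.03 (SE 0.10). Grb10 and Grb14, adaptors that dampen receptor signaling, were at 0.09 (SE 0.17) and -0.06 (SE 0.12), and the docking proteins Gab1 and Gab2 at -0.06 (SE 0.20) and -0.00 (SE 0.09).

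Of the 5 PI3K subunit genes, 1 had an unadjusted p under 0.05. Pik3cb (chr9:99036654-99140621), which encodes the catalytic subunit p110β, was at 5.96, 7.28, 7.37 and 6.21 CPM in βIgf1r and at 8.66, 8.96, 7.79 and 8.14 CPM in βIgf1rKD mice. All 4 βIgf1rKD mice lay above all 4 βIgf1r mice. The means were 6.70 ± 0.722 and 8.39 ± 0.522 CPM (SD, n = 4 each), a 1.25-fold difference with a log2 fold change of 0.32 (SE 0.11). The exact permutation test gave p = 0.0286, the smallest that 4 against 4 mice allow, and edgeR gave an unadjusted p of 0.0190 and an adjusted p of 0.987. Pik3cb was measured from 131 to 330 counts per mouse, and among the signaling genes it was the lowest per length but one.

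Whether Pik3cb passed an unadjusted p of 0.05 depended on the choice of mice and covariates. Its unadjusted edgeR p was 0.0599 without M148 (log2 fold change 0.27) and 0.0523 without M153 (0.29). It was 0.0562 with Xist, a gene that differs between the sexes, as a covariate (0.27). Without each of the other mice the edgeR p stayed under 0.05. The log2 fold change without a mouse lay between 0.27 and 0.37. The edgeR p also stayed under 0.05 with the acinar marker score as a covariate (log2 fold change 0.31). With the endothelial marker score the log2 fold change was 0.02. Since the summed endothelial markers also separated the groups, the score and the group cannot be told apart.

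Pik3ca, which encodes the catalytic subunit p110α, was at 41.8 ± 2.31 and 42.5 ± 3.17 CPM (SD, n = 4 each) in βIgf1r and βIgf1rKD mice, with a log2 fold change of 0.02 (SE 0.08). Pik3r1 (chr13:101680563-101768217), the gene of the main regulatory subunit p85α, was at 69.6, 54.8, 67.6 and 58.6 CPM in βIgf1r and at 49.4, 56.0, 65.6 and 66.6 CPM in βIgf1rKD mice. The groups overlapped, with a log2 fold change of -0.08 (SE 0.12, exact p = 0.514). The other regulatory subunit genes, Pik3r2 and Pik3r3, were at 0.15 (SE 0.14) and -0.06 (SE 0.11) on the log2 scale.

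Of the genes of PDK1, AKT and AKT substrates, 5 had a log2 fold change above 0 and 2 below, and none passed the test. Akt1 (chr12:112653821-112674884), the AKT gene with the higher level per length, was at 126.9, 110.2, 143.2 and 117.9 CPM in βIgf1r and at 134.0, 176.6, 141.9 and 130.4 CPM in βIgf1rKD mice. M146 was the highest, and M152 of the βIgf1r mice lay above 3 of the βIgf1rKD mice. The log2 fold change was 0.23 (SE 0.12, exact p = 0.143). Leaving out 1 mouse moved it between 0.12 (without M146) and 0.30 (without M152, at an unadjusted edgeR p under 0.05, adjusted p = 0.669).

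Akt2 (chr7:27591552-27640826), the AKT gene best known for insulin action on glucose, was at 89.8, 82.7, 91.9 and 82.9 CPM in βIgf1r and at 86.3, 92.1, 95.4 and 87.3 CPM in βIgf1rKD mice. The groups overlapped over most of their range, with a log2 fold change of 0.06 (SE 0.07, exact p = 0.314). Tbc1d4, a Rab regulator that AKT phosphorylates, was at 8.39, 12.1, 9.97 and 8.20 CPM in βIgf1r and at 10.99, 12.6, 8.97 and 11.1 CPM in βIgf1rKD mice. Its groups overlapped too, with a log2 fold change of 0.17 (SE 0.15, exact p = 0.343). Its relative Tbc1d1 was at 0.12 (SE 0.09), Pdpk1, the gene of PDK1, at -0.03 (SE 0.10), and the genes of the glycogen synthase kinases, Gsk3a and Gsk3b, at 0.06 (SE 0.07) and -0.02 (SE 0.07) on the log2 scale.

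The 4 FOXO genes were at a log2 fold change of -0.12 for Foxo1 and of 0.15 to 0.23 for the other three, and none passed the test. Foxo1 (chr3:52268336-52353221), which encodes the FOXO factor most studied in β-cells, was at 51.3, 56.6, 50.4 and 58.2 CPM in βIgf1r and at 50.7, 47.4, 52.1 and 49.0 CPM in βIgf1rKD mice. M151 and M153 were above all other mice, and the groups overlapped, with a log2 fold change of -0.12 (SE 0.07, exact p = 0.143). Foxo3 (chr10:42181841-42276755), a FOXO factor found in most tissues, was at 33.1, 43.8, 37.9 and 37.9 CPM in βIgf1r and at 52.5, 48.0, 35.2 and 43.7 CPM in βIgf1rKD mice.

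For Foxo3, M145 and M146 were above all βIgf1r mice and M149 was below 3 of them. The log2 fold change was 0.23 (SE 0.13, exact p = 0.200). It was 0.15 without M145, 0.33 without M149 (at an unadjusted edgeR p under 0.05, adjusted p = 0.9999), and as covariates Xist gave 0.09 and the endothelial score -0.30. Foxo6, a FOXO gene known mainly from brain, was at 14.1, 11.6, 11.3 and 12.6 CPM in βIgf1r and at 16.5, 13.6, 15.7 and 11.8 CPM in βIgf1rKD mice. Its groups overlapped, with a log2 fold change of 0.22 (SE 0.13, exact p = 0.171). It ran from 0.14 without M145 to 0.30 without M150, the latter under 0.05 before adjustment in edgeR (adjusted p = 0.899). Foxo4, on chromosome X, was at 17.9 ± 1.65 and 19.9 ± 0.750 CPM (SD, n = 4 each), with a log2 fold change of 0.15 (SE 0.09, exact p = 0.114). It ran from 0.11 without M148 to 0.21 without M152, the latter likewise under 0.05 before adjustment (adjusted p = 0.669 in edgeR), and was 0.02 with the endothelial marker score.

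The 5 phosphatase genes lay between -0.07 and 0.14 on the log2 fold change scale, and none passed the test. Ptpn11, which encodes the tyrosine phosphatase SHP2 that helps activate RAS, had the highest CPM of the 37 genes, at 194.7, 190.9, 223.0 and 176.9 CPM in βIgf1r and at 168.6, 219.0, 169.3 and 191.5 CPM in βIgf1rKD mice. M145 and M149 were below all βIgf1r mice and the groups overlapped, with a log2 fold change of -0.07 (SE 0.12, exact p = 0.457). Phlpp2, a phosphatase that acts on AKT, was at 15.6, 21.5, 18.9 and 17.1 CPM in βIgf1r and at 16.2, 18.8, 16.0 and 19.0 CPM in βIgf1rKD mice. All 4 βIgf1rKD mice were within the βIgf1r range, and the log2 fold change was -0.06 (SE 0.12, exact p = 0.657). Its relative Phlpp1 was at -0.04 (SE 0.12), Inppl1, the gene of the lipid phosphatase SHIP2, at 0.14 (SE 0.10) and Ptpn1, the gene of PTP1B, which dephosphorylates the insulin receptor, at 0.07 (SE 0.08).

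In the RAS to ERK cascade 3 genes had a log2 fold change above 0 and 3 below, and none passed the test. Nras, a RAS gene, was at 16.6, 16.9, 14.2 and 15.02 CPM in βIgf1r and at 17.7, 16.0, 19.6 and 17.3 CPM in βIgf1rKD mice. Only M146 of the βIgf1rKD mice lay within the βIgf1r range, and the log2 fold change was 0.17 (SE 0.10, exact p = 0.114). Braf (chr6:39603237-39725463), the gene of a RAF kinase, was at 71.2, 86.3, 65.9 and 91.1 CPM in βIgf1r and at 67.7, 60.4, 67.7 and 76.6 CPM in βIgf1rKD mice.

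For Braf the βIgf1r mouse M152 lay below 3 of the βIgf1rKD mice. The log2 fold change was -0.21 (SE 0.12, exact p = 0.200). It ran from -0.28 without M152, at an unadjusted edgeR p under 0.05 (adjusted p = 0.669), to -0.13 without M153. Mapk3, the gene of ERK1 and the most abundant of the 37 per length, was at 177.5, 170.3, 152.4 and 164.7 CPM in βIgf1r and at 154.8, 182.5, 151.6 and 165.6 CPM in βIgf1rKD mice. Its groups overlapped almost fully, with a log2 fold change of -0.02 (SE 0.09, exact p = 0.800). Hras, another RAS gene, was at 0.13 (SE 0.09), and the MEK genes Map2k1 and Map2k2 at -0.10 (SE 0.10) and 0.17 (SE 0.16) on the same scale.

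**Figure D2:**
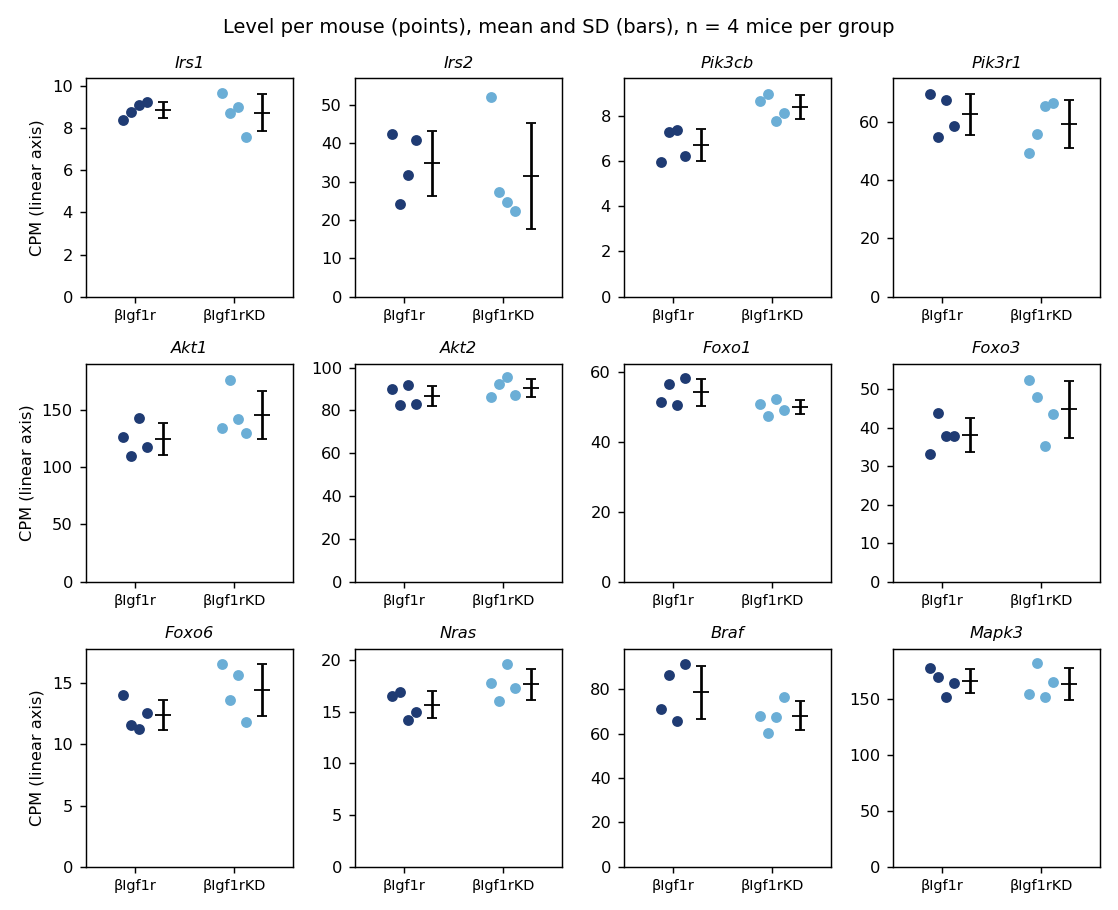
CPM of 12 of the signaling genes in each mouse (points) with the mean and SD of each group (bars, n = 4 mice), on linear axes that start at 0. For Pik3cb the 4 βIgf1rKD mice sit between 7.79 and 8.96 CPM, above the βIgf1r mice at 5.96 to 7.37, and for the other genes shown the groups overlap.

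The genes covered a wide range of levels per length, measured as CPM per kb of the principal transcript in βIgf1r mice (mean ± SD, n = 4). Mapk3 was highest at 92.4 ± 5.89, followed by Akt1 at 46.3 ± 5.28, Shc1 at 37.7 ± 0.978 and Ptpn11 at 35.5 ± 3.49, of which Shc1 and Ptpn11 did not differ beyond their spread. From Akt2 at 19.1 ± 1.04 the order dropped to Ptpn1 at 11.9 ± 0.730. Below that most neighbors in the order, such as Foxo1 at 6.25 ± 0.446 and Pik3r2 at 6.08 ± 0.869, lay within their spread. The lowest were Tbc1d4 at 1.49 ± 0.280, Gab1 at 1.33 ± 0.158, Pik3cb at 1.03 ± 0.111 and Irs1 at 0.972 ± 0.0408. When the length of all exons was used in place of the principal transcript, Mapk3 and Akt1 stayed highest, Irs1 and Pik3cb changed places at the bottom, and Grb14 moved from rank 14 to rank 30.

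**Figure D3:**
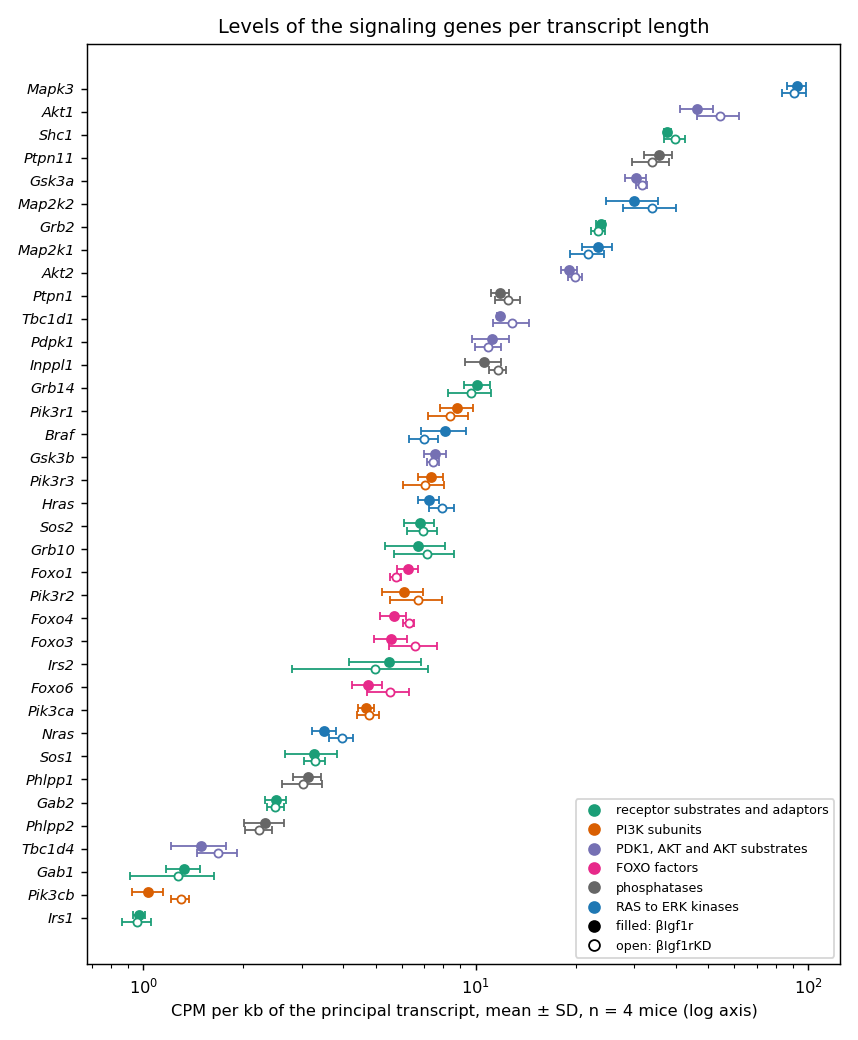
CPM per kb of the principal transcript (log axis) of each signaling gene, as mean ± SD of 4 mice, with filled points for βIgf1r and open points for βIgf1rKD mice. Levels run from 92.4 for Mapk3 to 0.972 for Irs1 in βIgf1r mice.

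The balance between related genes was compared in 13 pairs as the log2 ratio of CPM within each mouse, which depends on library scaling only through the prior count of 2. Differences between the groups lay between -0.34 and 0.17. The ratio of Pik3ca to Pik3cb, the genes of the catalytic subunits p110α and p110β, was 2.73, 2.46, 2.49 and 2.85 in βIgf1r and 2.37, 2.32, 2.31 and 2.32 in βIgf1rKD mice. All βIgf1rKD mice lay below all βIgf1r mice, and they spread less (mean 2.33 ± 0.03, against 2.63 ± 0.19, SD, n = 4 each). The difference was -0.30 with and without the prior count (exact two-sided permutation p = 0.0286, 0.371 adjusted over the 13 pairs), and it shares its counts with the difference of Pik3cb above. The ratio of Foxo1 to Foxo3 was 0.63, 0.37, 0.41 and 0.62 in βIgf1r and -0.05, -0.02, 0.56 and 0.17 in βIgf1rKD mice. M149 alone of the βIgf1rKD mice lay within the βIgf1r range, with a difference of -0.34 (exact permutation p = 0.0857, 0.495 adjusted). Akt1 over Akt2 differed by 0.17 (exact permutation p = 0.114, 0.495 adjusted), and the other 10 pairs had an exact p of 0.286 or more.

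Which gene of a pair was more abundant per length was mostly the same in all 8 mice. Irs2 exceeded Irs1 by 3.95- to 7.77-fold, Akt1 exceeded Akt2 by 2.25- to 3.24-fold and Gsk3a exceeded Gsk3b by 3.56- to 4.71-fold. Pik3ca exceeded Pik3cb by 3.62- to 5.27-fold, Tbc1d1 exceeded Tbc1d4 by 6.23- to 9.53-fold, and Hras exceeded Nras by 1.80- to 2.44-fold. These orders held in 8 of 8 mice also with the length of all exons. Foxo1 was above Foxo3 in 5 of the 8 mice, all 4 βIgf1r mice and M149. The orders of Grb10 and Grb14 and of Map2k1 and Map2k2 changed with the length used.

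**Figure D4:**
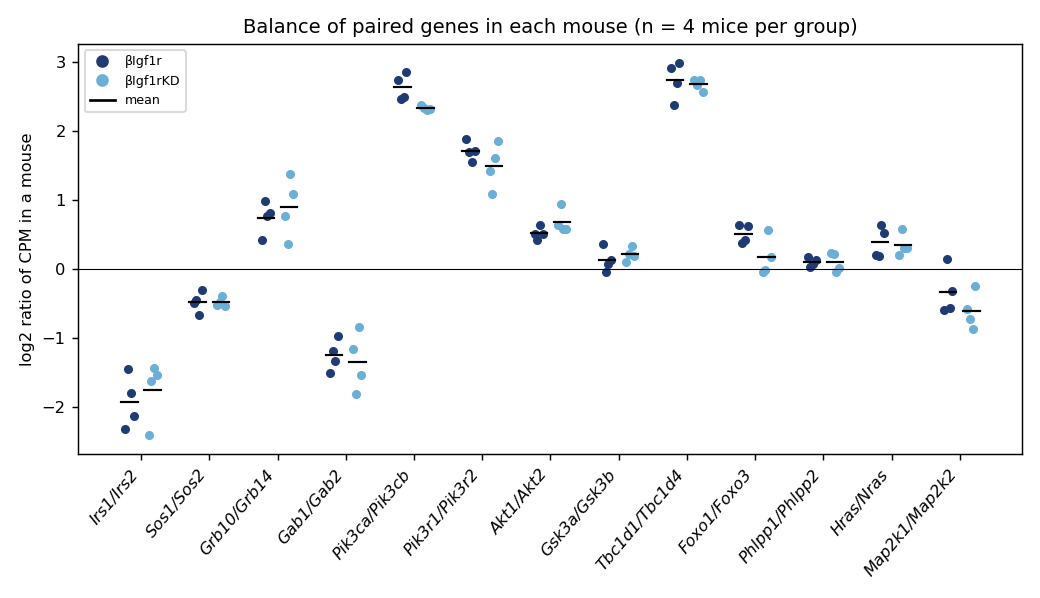
Log2 ratio of CPM of the first to the second gene of each pair (y axis) in each mouse (points), with the mean of each group (lines, n = 4 mice). The ratio of Pik3ca to Pik3cb is lower in all 4 βIgf1rKD mice (2.31 to 2.37) than in all 4 βIgf1r mice (2.46 to 2.85), and in the other 12 pairs the groups overlap.

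The rest of the pathway was read in 4 further lists, and 1 gene of these had an unadjusted p under 0.05, beside the 4.12% of all genes tested. Of 31 relatives of the signaling genes, such as other PI3K subunits, RAS proteins and scaffolds, 29 were tested and none had an unadjusted p under 0.05, with a median log2 fold change of -0.03. The smallest edgeR p were those of Ksr2, a scaffold of the ERK cascade (-0.16, SE 0.09, exact p = 0.143), and of Gab3, a docking protein measured from 10 to 35 counts per mouse (-0.40, SE 0.27, exact p = 0.0857). Of 20 known FOXO target genes 19 were tested, and none had an unadjusted p under 0.05, 7 being above 0 and 12 below with a median of -0.07.

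Txnip, a FOXO target that also responds to glucose, had the smallest edgeR p of these, at 1138, 201.8, 624.5 and 899.2 CPM in βIgf1r and at 578.4, 150.8, 354.9 and 230.9 CPM in βIgf1rKD mice. The 3 highest values were in βIgf1r mice, but M151 lay below 3 of the βIgf1rKD mice, and the log2 fold change was -1.12 (SE 0.53, exact p = 0.200, edgeR adjusted p = 0.987). Gabarapl1, an autophagy gene, was at -0.15 (SE 0.08, exact p = 0.0571).

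Of 16 ERK feedback and target genes 14 were tested and none had an unadjusted p under 0.05, with a median of -0.13, and the smallest edgeR p were those of Spry2, which inhibits the cascade (0.18, SE 0.13, exact p = 0.0857), and the ERK phosphatase gene Dusp5 (-0.20, SE 0.14, exact p = 0.400). Of 12 genes of the mTORC1 branch below AKT, all tested, 1 had an unadjusted p under 0.05. It was Eif4ebp2, a translation repressor controlled by mTORC1, at 96.5, 96.1, 108.7 and 97.3 CPM in βIgf1r and at 109.7, 115.0, 116.7 and 106.6 CPM in βIgf1rKD mice. The groups overlapped through M152 and M150, and the log2 fold change was 0.17 (SE 0.07, exact p = 0.0571, edgeR adjusted p = 0.987). Akt1s1, an AKT substrate, was at 0.15 (SE 0.13, exact p = 0.343).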

How the data were processed

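Estimated counts, not normalized, were deposited by the authors for 53012 Ensembl identifiers, of which 51906 were matched to a symbol. The libraries were stranded mRNA libraries, and the submitters' processing notes name fastp, kallisto and GRCm38. Versions, the annotation and whether strand was used in counting are not given in the sources used here. Of the values 12.4 to 14.7% were not whole, and all were rounded.

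Genes with at least 10 counts in 4 mice, after scaling to library size, and 15 in total were kept (15474). Groups were compared with edgeR 4.0.16 (TMM, quasi-likelihood test, Benjamini-Hochberg adjustment over all genes tested) in R 4.3.3. The 8 mice are separate animals, and mouse numbers are not shared between groups. CPM was computed with TMM factors. For log2 CPM, also in the pair ratios, 2 was the prior count, and exact two-sided permutation tests over 70 assignments were made on it. Percentages of counts held by markers use unscaled counts. Marker scores are means of z-scores of log2 CPM. Gene coordinates are 1-based, on GRCm38, from GENCODE. Scripts were tested on simulated counts. Plots used matplotlib 3.10.9.

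The genes, lists, pairs and tests were chosen with earlier results of these data known. Values per mouse are given for the 6 signaling genes with the smallest p, those without overlap between groups, 7 fixed genes (Irs1, Irs2, Pik3r1, Akt1, Akt2, Foxo1 and Mapk3), and the highest and the lowest per length of each role. Of each other list the 2 genes with the smallest p are named, with values per mouse for Txnip and Eif4ebp2 only. The means of Foxo4, Grb2 and Pik3ca and the values per mouse of Map2k2 were added after their values were seen.

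Alternatives were DESeq2 1.42.0, limma-voom (limma 3.58.1), RLE size factors, no filter, at least 10 counts in every mouse, acinar score, endothelial score or Xist as a covariate, leaving out each mouse and, for the pair ratios, no prior count.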

Additional observations from a re-analysis of the deposited data

Results flagged for a closer look

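In 3 of 102 sets of 4 mice, of which 76 were the log2 CPM of 1 gene in 1 group (the signaling genes and Igf1r) and 26 a log2 pair ratio in 1 group, 1 mouse lay far from the other 3 by Dixon's test at the 95% level, which chance gives in about 1 in 20 sets. Gab2 was at 4.07 in M150, and at 3.90 to 3.92 in the other βIgf1rKD mice. Gsk3a was at 6.24 in M149, and at 6.13 to 6.14 in the others of its group. Foxo4 was at 4.40 in M146, and at 4.28 to 4.30 in the other βIgf1rKD mice.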

How the results depend on the processing

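No signaling gene had an adjusted p under 0.05 in any of the 8 other fits or without any of the 8 mice. The number with an unadjusted p under 0.05 was 1 and became 0 with the endothelial score or with Xist as a covariate, and 0 to 4 without a mouse (4 without M152, and 0 without M148 or M153). Over all genes tested, 0 adjusted calls became 8 by DESeq2 and 1 by limma-voom, and stayed at 0 without any 1 mouse. The 637 unadjusted calls became 1098 with no filter, 388 with the acinar score and 1143 with Xist. The fit with no filter tested a larger set of genes, and its share of calls was not computed. Without a mouse they ran from 383 (without M148) to 1114 (without M152), so that calls rose over all genes too in the fit without M152. The single call in the other pathway lists became 0 with RLE factors, the stricter filter or the acinar score, 2 by DESeq2, 4 with the endothelial score, 6 with Xist, and 0 to 3 without a mouse. The causes of these shifts were not tested.

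Igf1r turned from -0.08 to 0.0264 with the endothelial score and to 0.0232 with Xist, was -0.17 with the acinar score, and lay between -0.15 and -0.01 without a mouse. With the endothelial score, Pik3r1 turned to 0.33, Tbc1d4 to -0.36, Foxo3 to -0.30, Mapk3 to 0.0111, Txnip to 0.30 and Dusp5 to 0.25. Mapk3 turned to 0.0612 with the acinar score and Pik3r1 to 0.0042 with Xist. Without a mouse the log2 fold changes of Irs1 (-0.0741 to 0.0416), Pik3r1 (-0.14 to 0.0022), Phlpp2 (-0.13 to 0.0266) and Mapk3 (-0.08 to 0.0122) crossed 0. The ratio test cannot reach 0.05 with 3 against 4 mice left, and the difference in Pik3ca over Pik3cb was -0.36 to -0.23 there. No paired analysis was possible because no mouse number occurs in both groups.

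Exons of Irs1, Irs2, Gab1, Pik3r2, Gsk3a, Foxo1, Inppl1 and Braf are overlapped by genes on the opposite strand and those of Pik3r3 by 1 on the same strand, and a share of reads with these neighbors was not tested. Gene counts do not separate isoforms. Counting error matters most for Gab1, Pik3cb, Tbc1d4 and Irs1, the genes with the fewest counts.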

Other observations

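Some signaling genes ranked the mice alike, which was seen in their values and not tested. Akt1, Pik3r2 and Map2k2 were each highest of all 8 mice in M146, and within the βIgf1r group each was highest in M152 and lowest in M151. Akt2 had the same highest and lowest βIgf1r mice but was highest of all in M149. These genes were picked out after the values were seen, and the share of all genes with this order was not computed. Map2k2 was at 75.5, 57.3, 88.2 and 67.6 CPM in βIgf1r and at 70.3, 98.2, 89.0 and 67.8 CPM in βIgf1rKD mice. Sos1, Sos2, Pdpk1 and Braf were each lowest of the βIgf1r mice in M152. So were Gab1, Gsk3a, Foxo1, Foxo6, Nras and Mapk3, and the share over all genes was not computed. M146 held the highest value of 13 of the 37 signaling genes and of 21.2% of all genes tested, and M150 that of 0 and of 4.04%.

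Irs2 and Txnip had the same order of the βIgf1r mice, with M148 highest, then M153, M152 and M151. Both were highest in M145 among the βIgf1rKD mice. This match was picked out after the values were seen and was not tested. The order of the other βIgf1rKD mice was not the same in the 2 genes.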
